A study of Mus musculus with 8 samples.

Results

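Chaperones and folding enzymes are the genes described here: those whose symbol starts with Hsp followed by a, b, d, e, h or 9, with Dnaj, with Pdia, or with Cct followed by a digit. The rule uses names only, and it finds 60 of the 8741 genes that could be named on the arrays, through 98 probes. Of these, 33 act in the cytosol or nucleus, 11 in the endoplasmic reticulum (ER) and 8 in mitochondria, and 8 are J proteins of another or an unsure place. By family there are 33 J proteins (Dnaj genes), 9 subunits or relatives of the CCT chaperonin, 6 HSP70 genes, 5 small heat shock proteins, 2 HSP110 genes, 2 HSP90 genes, the HSP60 and HSP10 pair and 1 protein disulphide isomerase.

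The samples were lungs of male mice of 14 weeks on a C57BL6 x CBA background. Each of 4 mice transgenic for Fra-2, the AP-1 transcription factor encoded by Fosl2, was hybridised on 2 dye-swapped arrays. The other channel always held 1 pool, made of lung RNA of 4 wild-type males of that age and background, so the control is 1 sample and its spread between animals is left out of every test. The promoter that drives the transgene is not given in the sources used here, and mice of 6 and 10 weeks are not analysed here.

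Values are log2 ratios, likely transgenic over pool: the labels list the transgenic RNA as channel 1 and the pool as channel 2, but which channel was divided by which is not given in the sources used here. With 0 probes named Fosl2, the transgene could not serve as a check. All 8 arrays correlated positively with each other, at 0.204 to 0.715 over all probes, and carried 20585 to 20729 usable ratios. The second array of mouse 4 stood apart, with an interquartile range of 0.906 against 0.451 to 0.521 on the other 7. Without it, 12 members passed the test, as with it, and the call of each of the 60 members was the same (33.7% of all genes called). The deposited ratios hold no level, so whether lung genes were present cannot be read from them; 5 of 11 lung epithelium markers had a named probe. In whole lung, fewer cells of a type and less RNA per cell cannot be told apart.

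HSP70 chaperones bind exposed hydrophobic stretches of proteins in cycles of ATP hydrolysis. J proteins bring them substrates and start the hydrolysis, HSP110 proteins exchange the nucleotide, and HSP90 finishes the folding of kinases, receptors and other clients. The CCT chaperonin is a closed chamber that folds actin and tubulin, small heat shock proteins hold unfolded proteins without using ATP, and protein disulphide isomerases join cysteines in secreted proteins. Cytosolic members are induced by heat shock factor through heat shock elements, and ER members by the unfolded protein response through ER stress response elements. Both systems also work in unstressed tissue such as lung, whose secretory cells pass much protein through the ER.

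RefSeq promoters (assembly GRCm38.p6, 250 bases before to 50 bases after each annotated start) were found for 51 of the 60 members. The textbook elements are shown because they are the textbook marks of the 2 systems compared here. Each was searched on both strands with no mismatch. The ER stress response element was taken as CCAAT, 9 free bases and CCACG. It stood in 0.119% of 32851 promoters and in those of 3 members, all of the ER: Hspa5 (BiP, the HSP70 of the ER), Hsp90b1 (its HSP90) and Dnajc3 (a J protein of BiP). Element II, taken as ATTGG, 1 free base and CCACG, stood in 0.0365% of promoters and in that of 1 member, Dnajb11, another J protein of BiP. The heat shock element was taken as GAA, TTC and GAA with 2 free bases after each of the first 2 blocks, and stood in 0.603% of promoters. Members with it were Hsph1, an HSP110, Dnajb6, a J protein that keeps aggregates apart, and the mitochondrial chaperonin pair Hspd1 and Hspe1. A match is a description of the letters, not a site shown to be bound. In the sequences, 5′ to 3′ on the strand of the gene, capitals mark the matches. The first 3 runs are the 250 bases before the start of Hspa5 (chr2:34771840-34772089, plus strand), Hsp90b1 (chr10:86705445-86705694, minus strand, with 2 matches) and Dnajc3 (chr14:118937682-118937931, plus strand). For Dnajb11 (chr16:22857843-22857872, plus strand) and Hsph1 (chr5:149636279-149636308, minus strand), 30 bases around the match are shown. Hspd1 and Hspe1 start head to head, 216 bases apart, and the stretch between them (chr1:55087933-55088147, read on the plus strand, that of Hspe1) holds 2 overlapping matches that serve both genes' windows.
Hspa5: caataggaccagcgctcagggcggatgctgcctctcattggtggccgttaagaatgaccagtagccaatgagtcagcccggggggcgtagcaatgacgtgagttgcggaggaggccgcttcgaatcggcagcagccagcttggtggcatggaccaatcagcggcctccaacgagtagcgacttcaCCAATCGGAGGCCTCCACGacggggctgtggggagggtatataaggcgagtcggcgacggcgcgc
Hsp90b1: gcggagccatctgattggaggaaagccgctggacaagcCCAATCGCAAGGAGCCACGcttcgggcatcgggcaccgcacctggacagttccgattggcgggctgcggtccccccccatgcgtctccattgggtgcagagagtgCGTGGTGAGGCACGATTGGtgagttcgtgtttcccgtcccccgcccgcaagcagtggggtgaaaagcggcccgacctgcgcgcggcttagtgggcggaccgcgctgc
Dnajc3: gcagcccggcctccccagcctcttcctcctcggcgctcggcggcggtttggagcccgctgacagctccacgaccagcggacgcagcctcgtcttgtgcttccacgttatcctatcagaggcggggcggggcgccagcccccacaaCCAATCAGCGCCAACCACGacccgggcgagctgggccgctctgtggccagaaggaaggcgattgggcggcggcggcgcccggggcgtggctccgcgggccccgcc
Dnajb11: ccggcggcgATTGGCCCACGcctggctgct
Hsph1: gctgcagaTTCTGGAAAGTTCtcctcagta
Hspd1 and Hspe1: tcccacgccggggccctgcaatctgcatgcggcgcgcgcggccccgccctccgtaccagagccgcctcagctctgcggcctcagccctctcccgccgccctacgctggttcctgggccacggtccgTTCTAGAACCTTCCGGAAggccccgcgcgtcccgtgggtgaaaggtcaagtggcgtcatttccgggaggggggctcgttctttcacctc

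The first question of the design is which of these genes differed between transgenic lung and the wild-type pool. Chaperone and folding genes as a whole moved little: their mean log2 ratios ran from -0.58 to 0.31, and 37 of 60 (61.7%) lay within 0.2 of 0, against 51.8% of all genes tested. The 5 lowest were Hspb1, the small heat shock protein HSP27, the J proteins Dnajb3, Dnajc8 and Dnajc9, and the HSP70 relative Hspa12b; the highest that passed the test was Dnajc7, a J protein that binds both HSP70 and HSP90. In all, 12 of 60 members passed the test, 4 higher and 8 lower. Among all 8692 genes tested, 31.9% passed, 13.5% higher and 18.4% lower. The share of members, 20%, was thus below the background share. The median log2 ratio was -0.083 for the members and -0.011 for all genes, and the median size of the ratio was 0.157 and 0.191. The test was limma on the mean of each of the 4 mice against 0, two-sided, with Benjamini-Hochberg adjustment over all genes and a threshold of 0.05 on the adjusted p.

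**Figure D1:**
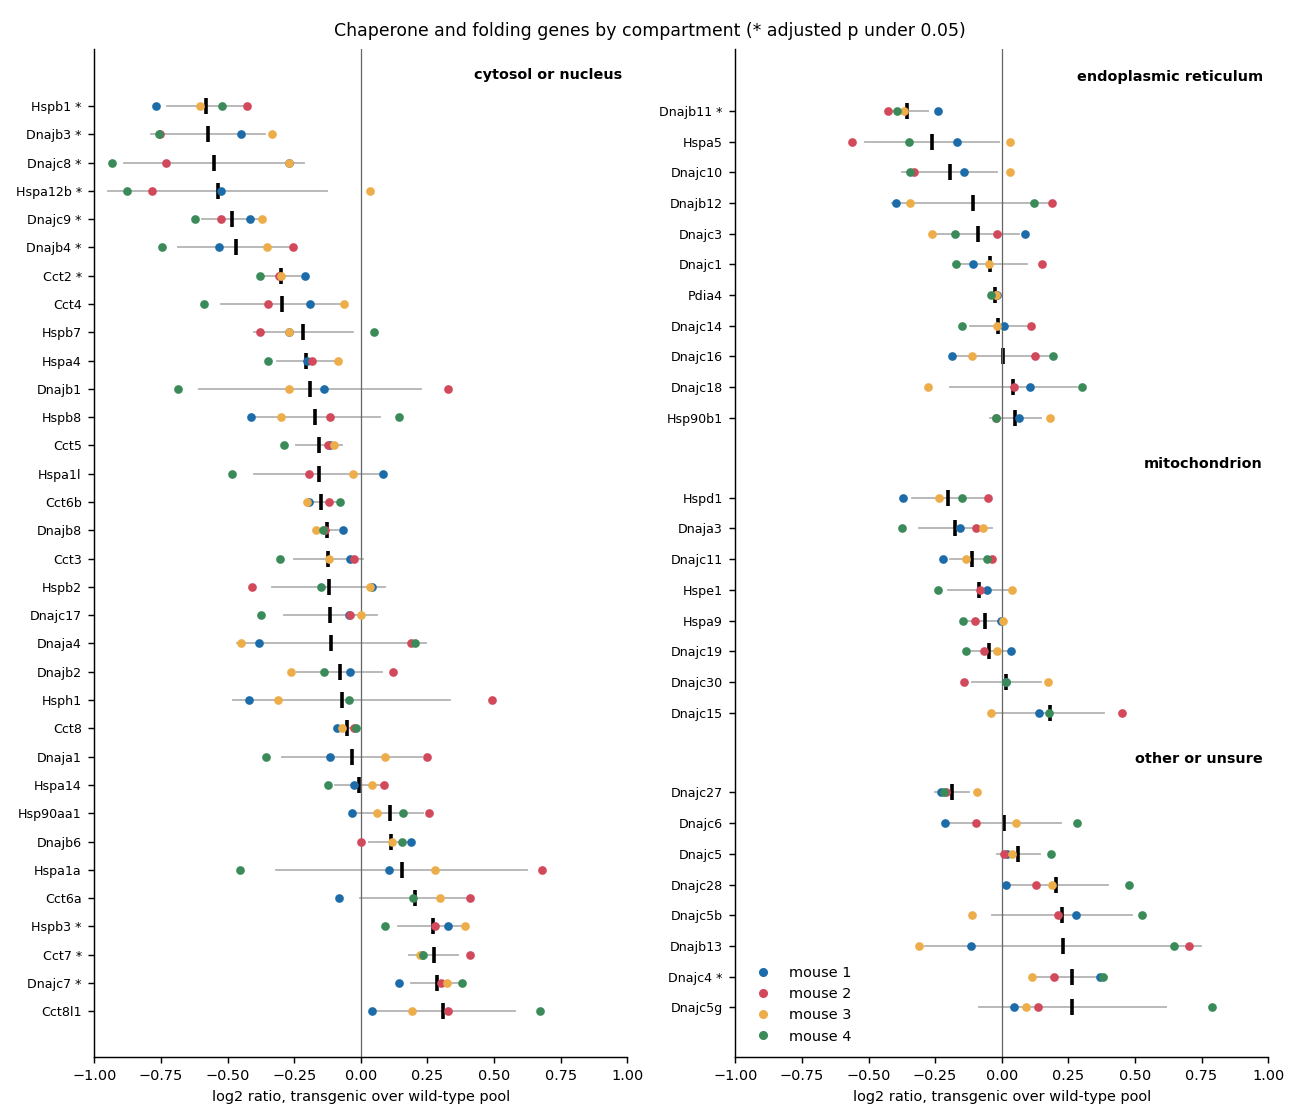
Log2 ratio of each of the 60 members, transgenic over wild-type pool, by compartment: each coloured point is 1 mouse (mean of its 2 arrays), the black bar is the mean of 4 mice and the grey line spans 1 SD each way; an asterisk marks the members past the adjusted p of 0.05. Most means lie within 0.2 of 0, and the called members at the low end are nearly all in the cytosol panel.

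Cytosolic members carried most of the calls. Of 33, 3 rose and 7 fell (30.3%, near the background of 31.9%), with a median log2 ratio of -0.122; the median was below 0 in each mouse, at -0.12, -0.042, -0.086 and -0.15. Of 11 ER members, 1 fell and 0 rose by the same limma test (9.09%), and at an unadjusted p under 0.05 the counts were 2 and 0. The ER median was -0.044, and the mice had medians of -0.11, -0.018, -0.049 and -0.15. Of 8 mitochondrial members, 0 passed in limma and 1 was lower at an unadjusted p under 0.05; their means ran from -0.20 to 0.18 with a median of -0.073. The 8 other J proteins had a median of 0.214, with 1 called, higher; by mouse the median was 0.019, 0.13, 0.045 and 0.43. Without the second array of mouse 4, that median was 0.063 and the mitochondrial one -0.034. Whether the compartments differ from each other was not tested, and 11 and 8 genes are few.

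**Figure D2:**
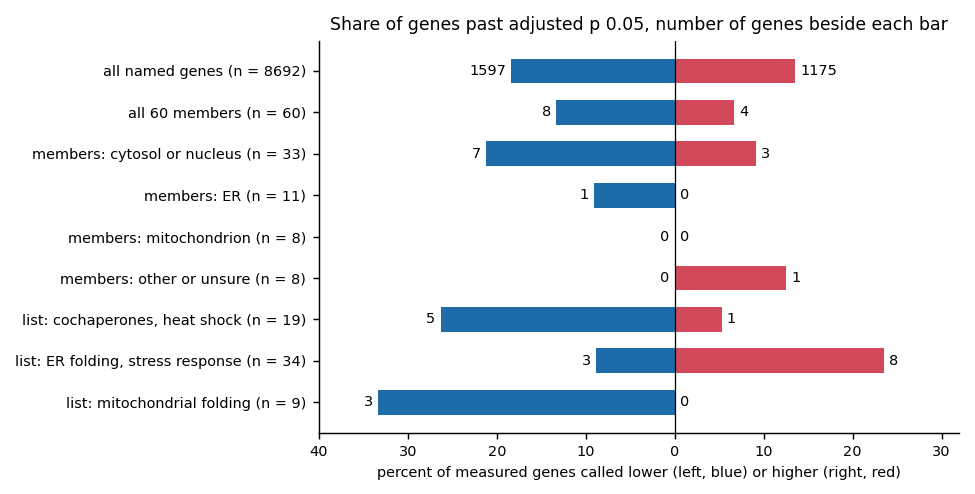
Percent of measured genes called lower (left, blue) or higher (right, red) by limma at an adjusted p under 0.05, for all named genes, for the members by compartment and for 3 lists of other folding genes; the number of genes stands beside each bar. The cytosol bar (7 lower, 3 higher of 33) comes closest to all genes, and the ER and mitochondrion bars are shorter.

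Among the cytosolic HSP70 genes, only Hspa12b was called by the test. Hspa12b, a distant HSP70 relative found in endothelial cells, had log2 ratios of -0.52, -0.78, 0.035 and -0.88 in mice 1 to 4. Mouse 3 therefore stood at the pool level while the other 3 mice were low, and the gene, with the sign of 1 mouse differing, is named here after its values were seen (mean -0.54 ± 0.41, SD, n = 4 mice, limma adjusted p = 0.0308). Hspa1a, the stress-inducible HSP70, averaged 0.15 ± 0.47 and was not called. Hspa14, a ribosome-bound HSP70, was at -0.006 ± 0.091, with a 95% interval of -0.18 to 0.17. Hspa1l, a testis form, was at -0.16 ± 0.24. The stress-inducible twin Hspa1b and the constitutive Hspa8 have no named probe here, and Hspa1a probes can bind the RNA of close copies.

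The nucleotide exchange and HSP90 members were not called at the gene level. Hspa4, an HSP110, was lower in every mouse, at -0.20, -0.18, -0.086 and -0.35, and its mean of -0.21 did not pass. Of its 3 probes, 1 was called lower at -0.272 (limma over probes adjusted p = 0.0436), and the others averaged -0.257 and -0.087. Hsph1, the heat-inducible HSP110, averaged -0.072 ± 0.41 with mice on both sides of 0. Hsp90aa1, the inducible cytosolic HSP90, averaged 0.109 ± 0.124 over probes of opposite sign. Of its 2 probes, 1 was higher in all 4 mice, at 0.50, 0.35, 0.60 and 0.34 (mean 0.446, limma over probes adjusted p = 0.0107). The other averaged -0.228 and was not called; its name comes from a stretch of the annotation where the match of names to rows is weak.

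Of 12 cytosolic and nuclear J proteins, 4 were called lower, against 18.4% of all genes, and Dnajc7 was called higher. All 33 J proteins together had 7 calls (21.2%), below the 31.9% of all genes. Dnajb3, a J protein best known from testis, had log2 ratios of -0.45, -0.75, -0.33 and -0.76 in the 4 mice. All 8 arrays were below 0, from -0.17 to -1.05, and the mean was -0.57 ± 0.21 (limma adjusted p = 0.00578). Dnajc9, a J protein that is also a histone chaperone, had -0.42, -0.53, -0.37 and -0.62, with a mean of -0.485 ± 0.113 (limma adjusted p = 0.00487). Its arrays lay between -0.21 and -0.91, so the pool was higher on every one. Dnajb4, a relative of Dnajb1 that partners HSP70, had -0.53, -0.25, -0.35 and -0.74 and fell by 0.470 ± 0.217 on the log2 scale (limma adjusted p = 0.0115). Both of its probes were called lower, at -0.597 and -0.345. Dnajc8, a J protein of the splicing machinery, had -0.27, -0.73, -0.27 and -0.93, which splits the mice into a nearer and a farther pair (mean -0.55 ± 0.34, limma adjusted p = 0.017). Its 3 probes read -0.116, -0.841 and -0.697, and the latter 2 were called.

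Dnajc7 was the cytosolic J protein that rose. Its log2 ratios were 0.14, 0.30, 0.32 and 0.38, a mean of 0.287 ± 0.10 (limma adjusted p = 0.0254). All 8 arrays were above 0, from 0.077 to 0.469. Dnajc4, a J protein placed in neither compartment here, had 0.37, 0.20, 0.11 and 0.38 (mean 0.264 ± 0.132, limma adjusted p = 0.0417). The classical HSP70 partners Dnaja1 and Dnajb1 averaged -0.033 ± 0.263 and -0.19 ± 0.42, and neither passed. Dnajb6, with 5 probes, averaged 0.114 ± 0.082, and 1 of its probes was called higher at 0.443.

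The small heat shock proteins went both ways. Hspb1 had log2 ratios of -0.77, -0.43, -0.60 and -0.52 in the 4 mice, and all 8 arrays were below 0, from -0.277 to -0.781. Its mean of -0.58 ± 0.145 is a level 1.5-fold lower than in the pool (limma adjusted p = 0.00341), the lowest mean of the 60 members. Hspb3, known from muscle, had 0.33, 0.28, 0.39 and 0.089 and rose (mean 0.271 ± 0.130, limma adjusted p = 0.0375). Hspb7, the cardiac form, had -0.27, -0.38, -0.27 and 0.051 and was not called (mean -0.216, adjusted p = 0.106). Hspb2 and Hspb8 averaged -0.121 and -0.171 and were not called either. Of the 2 probes of Hspb7, 1 was called lower at -0.325 (limma over probes adjusted p = 0.0439), and the other averaged -0.107. Several of these genes are muscle genes, and the marker list for heart and skeletal muscle moved too: of 22 of 28 markers measured, 19 were lower and 0 higher (limma; 0 higher also at an unadjusted p under 0.05). The list's median was -0.603 over the mice, and by mouse it was -0.63, -0.84, -0.72 and -0.42. Its 3 lowest called genes were Mb, Ckmt2 and Pln, at -1.81, -1.40 and -1.20. The part of these markers in the ratios of Hspb1, Hspb7 and Hspb3 was not tested; Hspb3 moved the other way.

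The CCT chaperonin, which works as a ring of 8 different subunits, did not move in 1 direction. Cct2 had log2 ratios of -0.21, -0.31, -0.30 and -0.38 and fell (mean -0.299 ± 0.069, limma adjusted p = 0.0186). Cct7 had 0.23, 0.41, 0.22 and 0.23 and rose (mean 0.273 ± 0.091, limma adjusted p = 0.0287). Each was called with 1 sign in 4 of 4 mice, so the lack of overlap between these 2 subunits follows from that and adds nothing. Cct4 had -0.19, -0.35, -0.064 and -0.59, did not pass (mean -0.297, adjusted p = 0.0568) and carries a weakly supported name. Cct3, Cct5 and Cct8 averaged -0.122, -0.157 and -0.052, and Cct6a averaged 0.205, all uncalled. Tcp1, the subunit whose symbol falls outside the naming rule, averaged -0.255 ± 0.196 (adjusted p = 0.0736). The relatives Cct6b, a testis form, and Cct8l1 averaged -0.148 and 0.309; the latter averaged -0.096 on the arrays with transgenic RNA in Cy5 and 0.713 on those with it in Cy3 (limma dye test adjusted p = 0.133), and 0.109 without the second array of mouse 4.

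In the ER, 1 of the 11 members was called, Dnajb11; Hspa5 (BiP), Hsp90b1, Dnajc3 and Pdia4 did not pass. Dnajb11 had log2 ratios of -0.24, -0.43, -0.37 and -0.39, and all 8 arrays lay between -0.198 and -0.449. It fell by 0.357 ± 0.081 on the log2 scale (limma adjusted p = 0.0109). Hspa5 had -0.17, -0.56, 0.030 and -0.35, low in 3 mice and at the pool level in mouse 3 (mean -0.262, 95% interval -0.51 to -0.014, adjusted p = 0.0974). Hsp90b1 had 0.066, -0.021, 0.18 and -0.023, a mean of 0.051 whose interval of -0.124 to 0.225 spans 0. Dnajc3 averaged -0.091 over 2 probes at -0.304 and 0.121. These are the 4 members with an ER stress element in the sequences above, and their means ran from -0.357 to 0.051.

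The remaining ER members were not called, with means from -0.196 to 0.044. Pdia4, a disulphide isomerase read by 3 probes, had -0.019, -0.021, -0.020 and -0.042, the smallest spread of the 60 members (mean -0.026 ± 0.011). Its fitted 95% interval, which borrows spread from other genes, was -0.185 to 0.133. Dnajc10, a J protein that reduces disulphides, averaged -0.196 ± 0.177. Dnajb12, Dnajc1, Dnajc14, Dnajc16 and Dnajc18 averaged between -0.107 and 0.044. The mice of Dnajb12 lay on both sides of 0, at -0.395, 0.190, -0.343 and 0.121, through 1 of its 2 probes. That probe read -0.977, 0.273, -0.923 and 0.194. The other was above 0 in every mouse, at 0.186, 0.106, 0.238 and 0.049, and neither was called. Pdia3, Pdia6 and Dnajb9, which belong to the core of this system, have no named probe here.

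A list of 40 other ER folding and stress response genes, of which 34 were measured, gave 8 higher and 3 lower (32.4%, against 31.9% of all genes) and a median log2 ratio of 0.026. Among the higher genes, Edem1 (0.62 ± 0.29) and Edem2 (0.60 ± 0.24) trim mannose from misfolded glycoproteins, and Erp29 (0.404 ± 0.163) is a folding factor for secreted proteins. Uggt1, the folding sensor, was at 0.404, and the translocon subunits Sec61b and Sec61a1 at 0.342 and 0.317. The lower genes were Herpud1 (-0.394), a stress-induced disposal factor, Erp44 (-0.364), a thiol retention protein, and Os9 (-0.263), a lectin of disposal. The stress regulators Xbp1, Ddit3 and Atf4 averaged -0.232, -0.222 and 0.031 and did not pass. Plasma cells are rich in ER folding genes, and 3 of the 5 plasma cell markers measured, of 12, were higher and 0 lower (limma; 1 lower at an unadjusted p under 0.05), with a median of 0.290; Xbp1 and Derl3 are on both lists. Their part in the ER ratios was not tested.

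Mitochondrial members showed no call at the gene level. Hspd1, the HSP60 chaperonin, had log2 ratios of -0.37, -0.05, -0.23 and -0.15 (mean -0.201, 95% interval -0.39 to -0.013, adjusted p = 0.0952). Its 2 probes disagreed: 1 was called lower at -0.522 (limma over probes adjusted p = 0.00706), and the other averaged 0.120. Hspe1, its HSP10 lid, which shares the bidirectional promoter shown above, averaged -0.085 ± 0.116. Hspa9, the mitochondrial HSP70, averaged -0.061 over 4 probes from -0.340, called lower, to 0.144. Dnajc15 and Dnaja3 marked the ends among mitochondrial J proteins, at 0.182 and -0.174. Of 9 of 11 further mitochondrial folding genes, 3 were lower and 0 higher by limma (33.3%, near the 31.9% of all genes, of which 13.5% were higher). At an unadjusted p under 0.05, 0 were higher too, and the median was -0.105. The lower genes were Grpel1 (-0.538), the exchange factor of Hspa9, the protease subunit Clpx (-0.346) and Hscb (-0.316), a J protein for iron-sulphur clusters.

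Cochaperones of the cytosol, like the cytosolic members, gave more lower than higher calls, as did all genes (18.4% lower and 13.5% higher). Of 29 listed, 19 were measured. Of these, 1 was higher and 5 lower (31.6%, near the 31.9% of all genes), with a median log2 ratio of -0.185. Bag4, an HSP70 exchange factor, had -0.55, -0.77, -0.28 and -0.91, the lowest mean of the list at -0.63. Cryab, the small heat shock protein alpha-B crystallin, had -0.46, -0.43, -0.42 and -0.52 (mean -0.457 ± 0.047). Pfdn6, a prefoldin subunit that hands clients to CCT, averaged -0.423, Ahsa2, an HSP90 activator, -0.393, and St13, an HSP70 cochaperone, -0.346. Sgta, a TPR cochaperone, rose at 0.235. Cryab is also a muscle gene, and most of the muscle markers given beside the small heat shock proteins were lower too. By mouse, the median of these markers ran from -0.84 to -0.42. Cryab ran only from -0.52 to -0.42, too narrow a range to order the mice (limma F test adjusted p = 0.974). The part of the muscle markers was not tested.

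A second question is how far single mice or probes carry the calls. Over probes, 22 of 97 tested member probes were called, 6 higher and 16 lower, against 25.7% of all probes. They belong to 20 of the 60 members, and 3084 of 8692 genes had at least 1 probe called. Of 25 members with several tested probes, 0 had probes called in opposite directions by limma, against 75 of 2588 genes (2.9%); at an unadjusted p under 0.05 there was 1, Dnajb8. Their probes lay a median of 0.289 apart on the log2 scale, against 0.288 for all genes. Dnajb4 and Dnajc8 had 2 probes called the same way, 8% of the 25, against 9.7% of genes with several probes. Examples of unequal probes are Dnajc27, with 1 called lower at -0.588 and 1 at 0.216, and Dnajb8, with 1 called lower at -0.466 and 1 at 0.210; these genes are named after their values were seen, and all these probes but the higher of Dnajc27 have weakly supported names.

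**Figure D3:**
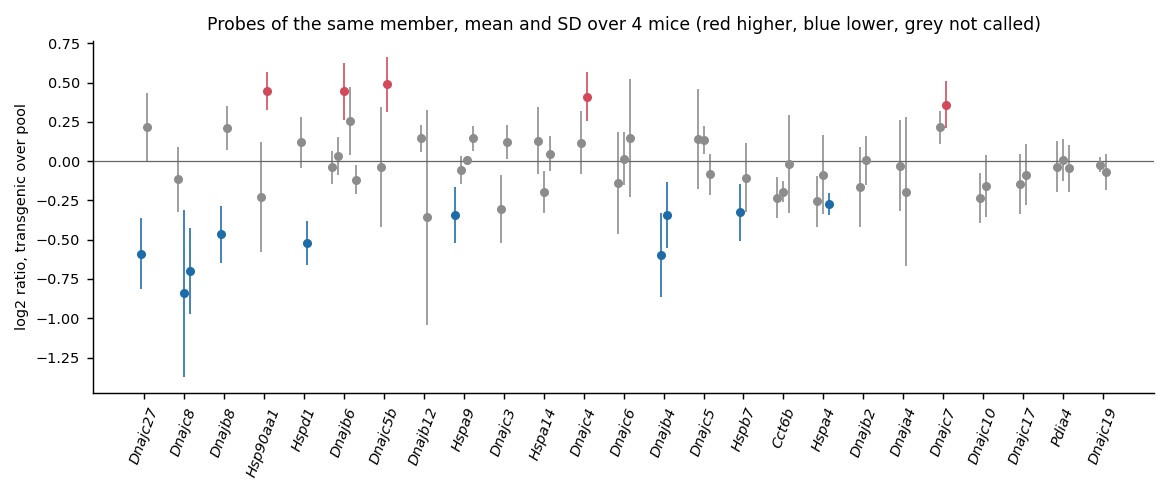
Log2 ratio of each tested probe of the 25 members with several probes, transgenic over pool: points are means of 4 mice, vertical lines are 1 SD each way, and members are ordered by the gap between their probes. Red marks probes called higher, blue lower and grey not called; no member has both red and blue.

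Leaving out 1 mouse removed many calls. With mice 1, 2, 3 and 4 left out in turn, 6, 4, 7 and 9 members were called, against 17.9%, 19.9%, 22.8% and 24.2% of all genes. Hspb1, Dnajb3, Dnajc9 and Dnajb4 were called in each of these 4 fits, and Hspb1, Dnajb3 and Dnajc9 under every alternative run. Dnajb11 missed the threshold only without mouse 2 (adjusted p = 0.0507). Cct2 missed it without mouse 1, 2 or 3 (0.055, 0.0701 and 0.0625), as did Cct7 (0.087, 0.118 and 0.071) and Hspb3 (0.134, 0.112 and 0.133). Dnajc8 missed it without mouse 2 or 4 (0.0681 and 0.0515) and Hspa12b without mouse 1, 2 or 4 (0.0828, 0.111 and 0.115). Dnajc7 and Dnajc4 missed it whichever mouse was left out, with adjusted p from 0.0525 to 0.0873 and from 0.0571 to 0.159. Calls in both directions, 7 of 12, were lost when the fit used only the 4 arrays that carried transgenic RNA in Cy3: adjusted p was 0.21 for Cct7, 0.158 for Dnajc4, 0.18 for Dnajc7 and 0.27 for Hspb3, which are the 4 higher calls. Among the lower calls it was 0.258 for Cct2, 0.122 for Hspa12b and 0.0505 for Dnajb4. In the same fit 4 other members gained a call, so 9 of 60 were called, 2 higher and 7 lower. Calls over all genes also fell in that fit, to 1921 of 8662 from 2772 of 8692. The dye test itself called 0 genes in limma (0% of 8645), while at an unadjusted p under 0.05 it picked 18 members and 26.7% of all genes.

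The third question is whether the transgenic mice differed from each other. The spread between mice, as the median SD over genes, was 0.15 for the members and 0.168 for all genes. In a limma F test over the 8 arrays with the dye as a term, 3 of 60 members differed between mice, against 2.78% of all genes: Hspa1a, Hsph1 and Dnajb13. Each has 1 probe, and with the adjustment made over all probes none of the 3 passed (adjusted p = 0.0766, 0.103 and 0.0777). Hspa1a read 0.113 and 0.10 on the arrays of mouse 1, 0.825 and 0.533 in mouse 2, 0.392 and 0.167 in mouse 3, and -0.320 and -0.588 in mouse 4 (adjusted p = 0.0339). Mouse 2 was thus highest and mouse 4 lowest on both dyes, a separation of the kind that the F test picks genes by. Hsph1 read -0.423 and -0.419, then 0.610 and 0.373, then -0.285 and -0.340, and 0.062 and -0.153 in mice 1 to 4 (adjusted p = 0.047). For Hsph1 mouse 2 alone was above the pool on both arrays. Dnajb1, whose name is weakly supported, and Dnaja1 were also highest in mouse 2, at 0.33 and 0.25 against -0.69 and -0.36 in mouse 4. They did not pass the F test (adjusted p = 0.165 and 0.142). Other heat shock genes among the members had other orders. Hspb1, Hsp90aa1 and Hspd1 were highest in mouse 2 too but lowest in mouse 1, and Hspe1 was highest in mouse 3 (0.037). The immediate early genes, a list that moves with handling of tissue, had medians by mouse of -0.26, -0.16, -0.40 and -0.55, highest in mouse 2 and lowest in mouse 4. The median of all 60 members was also highest in mouse 2 and lowest in mouse 4, at -0.086, -0.025, -0.056 and -0.136, so this is not particular to the list. Single genes of the list had other orders: Ier3 was lowest in mouse 2 (-0.824) and Zfp36 highest in mouse 4 (0.315). The part of the immediate early list in the heat shock genes was not tested.

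Dnajb13, a J protein of sperm and motile cilia, split the mice 2 against 2. It read -0.117 and -0.113 in mouse 1, 0.811 and 0.590 in mouse 2, -0.252 and -0.367 in mouse 3, and 0.525 and 0.768 in mouse 4 (limma F test adjusted p = 0.0353). Markers of ciliated cells, of which 7 of 14 were measured, had medians of -0.271, 0.275, -0.560 and 0.072 in mice 1 to 4, so mice 2 and 4 were the higher pair there too. Of these markers, Tekt1 and Rsph1 differed between mice (adjusted p = 0.047 and 0.0346), and 0 of 7 were called against the pool by limma, with 2 lower at an unadjusted p under 0.05. Their part in the Dnajb13 values was not tested. The F test measures spread between arrays of the same mouse only, and without the dye term 1 member passed (Dnajb13, adjusted p = 0.049; Hspa1a 0.0967 and Hsph1 0.106).

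**Figure D4:**
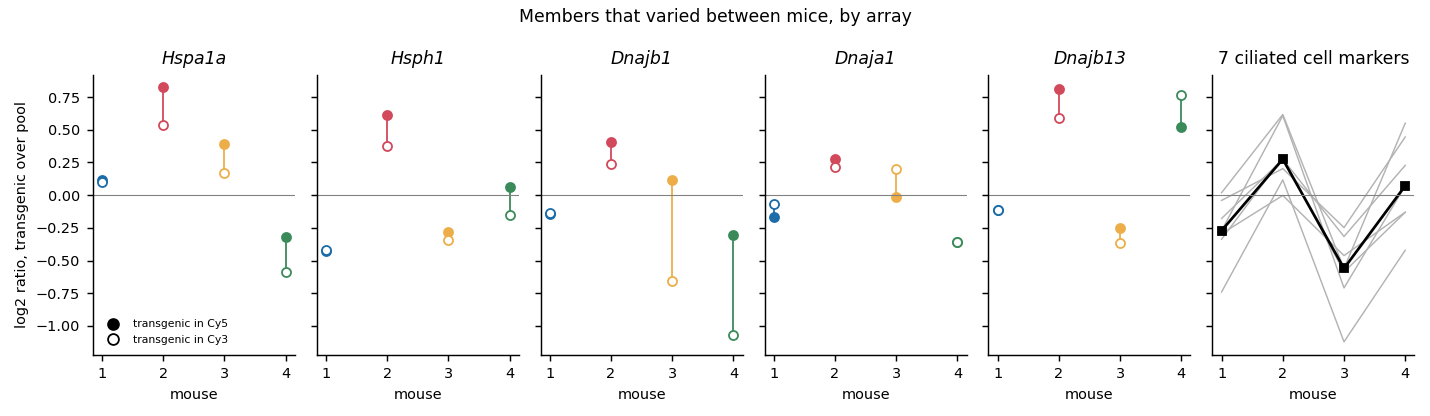
Log2 ratio by array for Hspa1a, Hsph1, Dnajb1, Dnaja1 and Dnajb13, transgenic over pool, with mice 1 to 4 on the x axis: filled points are arrays with the transgenic RNA in Cy5, open points arrays with it in Cy3, and the line joins the 2 arrays of a mouse. The last panel gives the 7 measured ciliated cell markers as grey lines of mouse means and their median as black squares. Mouse 2 is highest for the first 4 genes on the mean of its arrays, and mice 2 and 4 stand above mice 1 and 3 for Dnajb13 and for the marker median.

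Markers of other cell types moved in these lungs. Of 11 macrophage markers measured of 16, 8 were higher and 1 lower, with a median log2 ratio of 1.218. By mouse that median was 1.68, 0.78, 1.40 and 0.88. Chil3, Ctsk and Gpnmb were the highest called, at 4.43, 2.72 and 2.39, and Marco, an alveolar macrophage receptor, was at -2.54. Of 14 immediate early genes, 1 was higher and 7 lower, with a median of -0.338; Dusp1 and Nr4a1 were the lowest, at -1.57 and -1.13. Of 5 lung epithelium markers, Sftpb was higher (0.367) and Ager and Aqp5 were lower (-0.78 and -0.55). The members' ratios ran over a narrower range than these markers, and the part of changed cell shares in them was not tested.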

How the data were processed

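Lung RNA of 4 transgenic mice was measured on 8 two-colour arrays. The authors deposited 1 log2 ratio per probe and array; how they corrected background and normalized is not given in the sources used here, and no intensities were used, so no filter on dim probes was applied. Per the labels' protocols, RNA was isolated on RNeasy columns and labelled indirectly with Cy3 or Cy5. Arrays were taken as deposited (medians -0.093 to 0.008). Values beyond 10 in size (498) were set to missing; 706 were missing as deposited.

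Names come from a platform annotation whose probe number plus 11 gives the row of the value table. Over 4802 pairs of probes of one gene the rank correlation was 0.224 at this offset and at most 0.054 at any other within 60; in 3 of 21 blocks of 1000 numbers another offset was better, and names there are called weakly supported. They cover all probes of Cct4, Cct8, Dnaja3, Dnajb1 and Dnajb8 and some of 6 further members. Numbers above 20237 were left unnamed, 1 annotated member probe among them.

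A gene is the mean of its probes with a value in every mouse, and a mouse the mean of its 2 arrays. The test was limma 3.58.1 (R 4.3.3) on the mean of 4 mice, two-sided against 0 (3 residual and 4.27 prior degrees of freedom); 8692 genes and all 60 members entered. Intervals are 95%. Differences between mice were tested on 8645 genes. Tests were tested on simulated data; motifs and plots used Python 3.11.15. The labels give each mouse its own number; its 2 arrays are technical. The number of mice limits the precision.

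Named were called members with 1 sign in 4 of 4 mice, 26 core members fixed by name (6 have no probe here), members that differ between mice, and up to 3 called genes per list and direction; others are marked or given as values. Members and lists were chosen with earlier results of these data known.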

Additional observations from a re-analysis of the deposited data

Results flagged for a closer look

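In 7 of the 60 members, 1 of the 4 mice stood apart, in that its gap to the nearest other mouse as a share of the whole range was above Dixon's 95% limit for 4 values. Chance flags about 1 in 20 groups. The share of all genes flagged by this rule was not counted, so whether 7 of 60 is particular to the members cannot be said. The gaps were mostly small on the log2 scale. Mouse 4 was low for Cct5, a chaperonin subunit (-0.288, with the other mice from -0.122 to -0.102), for Dnajc17 (-0.376, others -0.043 to 0.001) and for Pdia4 (-0.042, others -0.021 to -0.019). Mouse 4 was high for the cysteine string protein genes Dnajc5 (0.183, others 0.009 to 0.037) and Dnajc5g (0.788, others 0.046 to 0.136). Mouse 2 was high for Cct7 (0.409, others 0.222 to 0.232), and mouse 3 was nearest the pool for Dnajc27 (-0.092, others -0.227 to -0.209). Mouse 4, with 5 of these 7, also holds the array with the widest ratios, its second. On its first and second arrays Dnajc5g read 0.140 and 1.436, Dnajc5 0.022 and 0.345, and Cct5 -0.122 and -0.454, so for these 3 genes the first array lay within or close to the range of the means of the other mice. Dnajc17 read -0.458 and -0.294, below 0 on both, and Pdia4 -0.099 and 0.014. For Dnajc17, the 2 arrays had opposite signs in mouse 1 (0.393 and -0.480) and in mouse 3 (0.365 and -0.362). Mouse 4 was thus not the lowest for Dnajc17 on the arrays with transgenic RNA in Cy3.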

How the results depend on the processing

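No member changed direction at a called value under any alternative run. The count of 12 called members ranged from 4 to 9 with 1 mouse left out. It was 20 of 60 when a member counted with at least 1 of its probes called, against 3084 of 8692 genes counted that way. For cytosolic members (10) the range was 4 to 8, for ER members (1) it was 0 to 1, and for all genes (2772) it was 1555 to 2107. With the mouse as a random block over the 8 arrays, 2 ER members and 1 mitochondrial member were called, beside 3246 of 8684 genes. The correlation within a mouse was 0.114. Among mitochondrial members, 1 was called on Cy5 arrays only (2804 of 8670 genes), 1 with the first probe of each gene (2786 of 8692), and 2 over probes (3084 of 8692). The cytosolic median (-0.122) was -0.065 on Cy5 arrays only; the ER median (-0.044) ranged from -0.109 to -0.023 with 1 mouse left out. Members that differ between mice numbered 1 without the dye term (1.2% of genes) and 0 over probes in limma (0.986% of probes; 13 members at an unadjusted p under 0.05). Quantile normalization gave 14 called members (3119 of 8692 genes), median centring 12 (2829 of 8692) and names without weak blocks 13 of 55 (2549 of 7869). The fit without the second array of mouse 4 was chosen after seeing the data. No paired analysis was possible because the pool is on every array and replicate numbers name arrays of 1 group.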
